A study of Schizosaccharomyces pombe with 4 samples.

Results

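Chromatin immunoprecipitation with sequencing (ChIP-seq) peaks were examined at 7 genes of mating and meiosis in the fission yeast Schizosaccharomyces pombe: map2, ste6, mei2, mug24, mug135, meu29 and mug122. The genes were chosen by the peak lists themselves, as genes with a Fkh2 peak in reach. A peak was in reach when its centre lay from 1000 bp upstream to 250 bp downstream of the annotated 5′ end of the gene. They are 7 of 5113 nuclear protein-coding genes of the reference annotation, and they account for 7 of the 152 peaks called for Fkh2, 1 of the 47 called for Sak1 and 0 of the 11 called for Sep1. On the chromosomes, 5 of the genes lie on III and 2 on I. Because the lists chose the genes, the presence and strength of these peaks are given as a description, with no test.

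Fkh2 (strain JLP1586), Sak1 (JLP1792) or Sep1 (JLP1670) was fused at its C terminus to TAP, an affinity tag that IgG beads bind, and strain F108 without a tag was the control. All 4 cultures were asynchronous and grown in YES, a rich medium. The Sep1 culture had 1 mM bortezomib, a proteasome inhibitor, for 45 min, per the labels, which name no treatment for the others, so factor and treatment cannot be told apart for Sep1. Each sample pools 2 experiments, so no value has a replicate error. Library totals were 1042990 tags for Fkh2, 795148 for Sak1 and 906632 for Sep1. The scaling in the deposited lists implies about 486279 tags for the untagged control, which all 3 lists share.

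Fission yeast mates and enters meiosis when it is starved, not in rich medium. The HMG-box factor Ste11 then switches on genes of pheromone signalling and meiotic entry through a short sequence often called the TR box, and a forkhead factor of meiosis, Mei4, acts later. Fkh2 and Sep1 are forkhead factors known for periodic transcription of M-phase genes, and Sak1 is a DNA-binding protein of the RFX family. The forkhead family recognises words such as GTAAACA, a letter sequence shared by mitotic and meiotic members. Cultures here were neither starved nor mating, as far as the labels say.

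The sequences under the peaks are shown first, because the genes fall into groups by the words they hold. At mei2 and ste6 the forkhead word GTAAACA and the Ste11 word TTCTTTGTT (searched on both strands) overlapped by 4 bases and formed a single 12-base site. The same site lay under the Fkh2 peak of spk1, a MAP kinase gene of the pheromone pathway that is not among the 7. Each line reads 5′ to 3′ on the strand of the gene, and capitals mark the joined site, which stands in the opposite direction at mei2.
mei2 (I:4514971-4515000, minus strand): ctgttgagaTTCTTTGTTTACttggcttac
ste6 (III:1765883-1765934, plus strand): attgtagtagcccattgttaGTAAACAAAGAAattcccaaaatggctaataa
spk1 (I:3001677-3001728, minus strand): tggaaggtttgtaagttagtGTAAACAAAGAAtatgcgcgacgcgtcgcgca
All sequences are from RefSeq assembly ASM294v3. The stretch at mei2 lies inside the annotated 5′ leader, 25 to 54 bp downstream of the gene's 5′ end. Those at ste6 and spk1 lie 203 to 152 bp and 210 to 159 bp upstream of the gene and hold no coding sequence or annotated leader.

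At mug122, the gene with both a Fkh2 and a Sak1 peak, the forkhead word stood together with the RFX word GTTRCCA (R is A or G). The same was true of meu29, with a Fkh2 peak and no Sak1 peak, and of nrd1, which had both and is shown for comparison. Capitals mark both words, which are separated by 34 bases at mug122, 3 at meu29 and 14 at nrd1.
mug122 (III:401812-401889, plus strand): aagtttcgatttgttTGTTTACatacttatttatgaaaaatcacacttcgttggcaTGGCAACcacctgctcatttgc
meu29 (I:2530098-2530127, plus strand): aaagttGTTACCAaaaGTAAACAactacca
nrd1 (I:555066-555123, plus strand): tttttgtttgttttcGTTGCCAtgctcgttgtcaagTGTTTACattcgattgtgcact
A further forkhead word at meu29 lay 68 bp upstream of the gene, outside the stretch shown, whose last 8 bases are annotated leader. At mug24, mug135 and map2 the forkhead word stood without a Ste11 or RFX word within 150 bp of the peak centre, and capitals mark it here.
mug24 (III:1919052-1919098, plus strand): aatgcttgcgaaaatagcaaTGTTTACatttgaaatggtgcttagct
mug135 (III:113474-113520, minus strand): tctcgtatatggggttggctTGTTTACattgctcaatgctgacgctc
map2 (III:987295-987341, minus strand): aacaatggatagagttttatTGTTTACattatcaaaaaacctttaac
The word at map2 lies 179 bp from the peak centre and so outside the peak, unlike those at the other 6 genes.

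Counted within 150 bp of the centre, the forkhead word lay at 6 of the 7 Fkh2 peaks of these genes, beside 112 of all 152 Fkh2 peaks (73.7%). It lay in 845 of 5112 promoter windows of 301 bases, from 250 bp upstream to 50 bp downstream of every gene start that allows one (16.5%). Its middle was a median of 29.5 bp from the centre at the 6 peaks (1 to 48 bp) and 26 bp over the 112 (1 to 146 bp). The 7 peaks thus resemble the Fkh2 list at large in this respect. The Ste11 word lay at 2 of the 7, beside 8 of 152 Fkh2 peaks (5.26%) and 102 of 5112 promoter windows (2.00%). The RFX word lay at 2 of the 7, beside 22 of 152 (14.5%) and 259 of 5112 (5.07%). It lay at 15 of the 46 nuclear Sak1 peaks (32.6%) and at 8 of the 116 Fkh2 peaks in no other list (6.90%). The MCB word ACGCGT, of the G1/S factor MBF, lay at 0 of the 7, beside 17 of 152 (11.2%) and 167 of 5112 (3.27%). A word match is not a binding site by itself, and with 7 peaks these shares were not tested.

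The joined site was rare. It occurred at 31 places on the 3 nuclear chromosomes and in 13 of 5112 promoter windows (0.254%), on either strand. Of the 31 places, 4 lay within 150 bp of a Fkh2 centre (12.9%), beside 148 of the 4206 places with the forkhead word alone or joined (3.52%). These 4 were mei2, ste6, spk1 and a site on chromosome III (318953 to 318964). The last lay in a Fkh2 peak centred over the noncoding RNA gene SPNCRNA.6792, with no protein-coding gene start in reach. No Sak1 or Sep1 peak held it (0 of 46 and 0 of 11 nuclear peaks). Of the 8 Fkh2 peaks with a Ste11 word, 4 held it in the joined form, and 7 held a forkhead word somewhere. The other 4 lay at pvg1, gpm1, anc1 and within SPAC26F1.11, and all 8 were in no other list, beside 116 of all 152 Fkh2 peaks (76.3%). The joined form was noticed in these data at mei2 and ste6 and then counted, so 2 of the 4 places were given in advance. These counts describe the sites and do not test them.

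**Figure D1:**
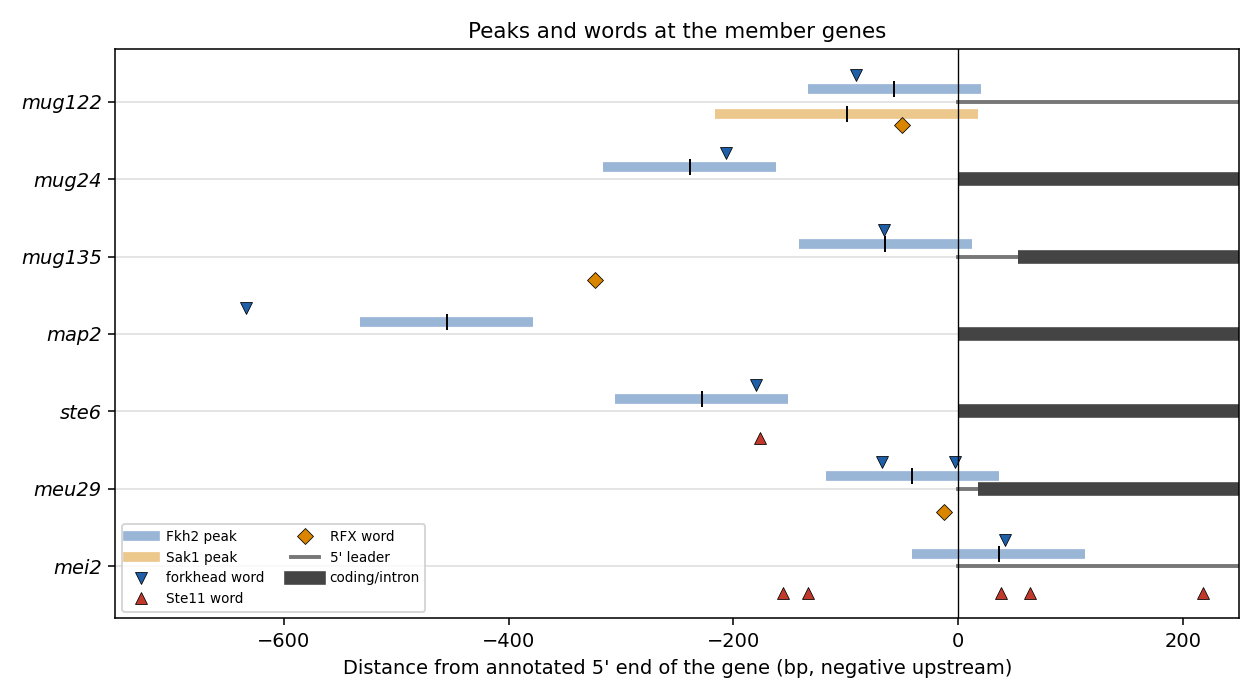
Peaks and words at the 7 genes, ordered from high to low Fkh2 tag count, by distance from the annotated 5′ end (bp, negative upstream; blue bars Fkh2 peaks, orange bar Sak1 peak, black ticks centres, symbols words within 300 bp of the Fkh2 centre, thick grey bars sequence from the start codon on). The forkhead word lies under the Fkh2 peak at every gene but map2, where it lies 179 bp away, and at mei2 and ste6 it coincides with a Ste11 word.

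The pheromone gene map2 encodes the precursor of P-factor, the mating pheromone of h+ cells. Its Fkh2 peak (III, 987062 to 987216) was centred 455 bp upstream of the gene's annotated 5′ end, the farthest of the 7, and lay between annotated genes. For 3 of the 7, map2, ste6 and mug24, the annotated 5′ end is the start codon, so distances to the 5′ end do not share 1 reference point. Measured to the start codon, the farthest centre was that of mei2, at 1697 bp. The Fkh2 normalised tag count, given by the authors as tags per 10000000, was 862.9 (90 tags, exact Poisson 95% interval 693.9 to 1061). That ranked 81 of 152, near the middle of the list, whose median was 894.1. Its fold over the untagged control by the authors' peak caller was 84.8, rank 11, over a control count of 0.5, below which no list goes. Against the control's mean over the genome, 5.98 tags per peak width, the fold was 7.09. Tag count and fold therefore place map2 in different parts of the list.

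The gene ste6 encodes the guanine nucleotide exchange factor that activates Ras1 in pheromone signalling. Its Fkh2 peak (III, 1765781 to 1765935) was centred 228 bp upstream, over the noncoding RNA gene SPNCRNA.1227, and the start of the neighbouring gene ptl1 was also in reach. The normalised tag count was 719.1 (75 tags, 565.6 to 901.4), rank 93, at 8.74 fold over 4 control tags. The joined site lay 50.5 bp from the centre, toward ste6.

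The RNA-binding protein Mei2 is required for entry into meiosis, and mei2 is a known target of Ste11. Its Fkh2 peak (I, 4514912 to 4515066) was the weakest of the 7 by tag count, at 512.9 (53.5 tags, 384.8 to 670.1), rank 126, and 8.31 fold over 3 control tags. The centre lay 36 bp downstream of the 5′ end and 1697 bp upstream of the start codon, within an annotated leader that spans 1733 bp of the genome. The joined site stood 3.5 bp from the centre. A second Ste11 word lay 28 bp from the centre, and further ones lay 170, 182 and 192 bp from it. Against the mean control of the genome the fold was 4.16, just above the 4 that the caller required. The caller's Poisson p against the control was 2.57e-14, the largest of the 7. The Fkh2 peak at mei2 was thus low in tags and centred on the joined site.

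The genes mug24, mug135 and meu29 take their names from transcripts that rise in meiosis (mug for meiotically upregulated gene, meu for meiotic expression upregulated). The annotation calls the product of mug24 an RNA-binding protein of the RRM type and gives no function for the other two. The Fkh2 peak of mug24 (III, 1918966 to 1919120) was centred 239 bp upstream, over SPNCRNA.7549. Its normalised tag count was 1424 (148.5 tags, 1204 to 1672), rank 44. Its 9 control tags, the most among the 7, gave the lowest of their folds, 7.69. The mug135 peak (III, 113419 to 113573) was centred 65 bp upstream and had a count of 1285 (134 tags, 1077 to 1522), rank 52, at 62.4 fold over 1 control tag. Its forkhead word lay 1 bp from the centre. At meu29 (I, 2530002 to 2530156, centred 41 bp upstream) the count was 584.9 (61 tags, 447.4 to 751.3), rank 112, at 14.2 fold over 2 control tags. By tag count mug24 and mug135 stood above the median of the Fkh2 list and meu29 below it, while by fold mug24 fell to rank 104 and mug135 and meu29 moved up to ranks 18 and 59.

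The gene mug122, annotated as a PX/PXA domain protein, differed from the other 6 in having strong peaks in 2 lists. The Fkh2 peak (III, 401787 to 401941) was centred 57 bp upstream and had a normalised tag count of 3274 (341.5 tags, 2936 to 3641), rank 11 of 152. The Sak1 peak (III, 401705 to 401939) was centred 99 bp upstream, 42 bp from the Fkh2 centre. It had a count of 3773 (300 tags, 3358 to 4225), rank 5 of 47. The forkhead word lay 34 bp from the Fkh2 centre and 8 bp from the Sak1 centre, and the RFX word 7 bp and 49 bp. Each factor's peak centre was thus nearer to the other factor's word, at distances smaller than either peak's width.

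The folds over the control at mug122 were the second highest in the Fkh2 list, 320.1, and the highest in the Sak1 list, 369.1. Both rest on a control count of 0.5 in the same untagged library. Against the mean control of the genome they were 26.8 and 20.4. The Fkh2 tag count of mug122 was 2.30 times that of mug24, the highest of the other 6, and 4.14 times their median of 791.0. Its counting interval did not overlap theirs. This contrast was part of how the genes were chosen. No Sep1 peak was in reach, and the nearest one was centred 28403 bp downstream of the 5′ end.

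**Figure D2:**
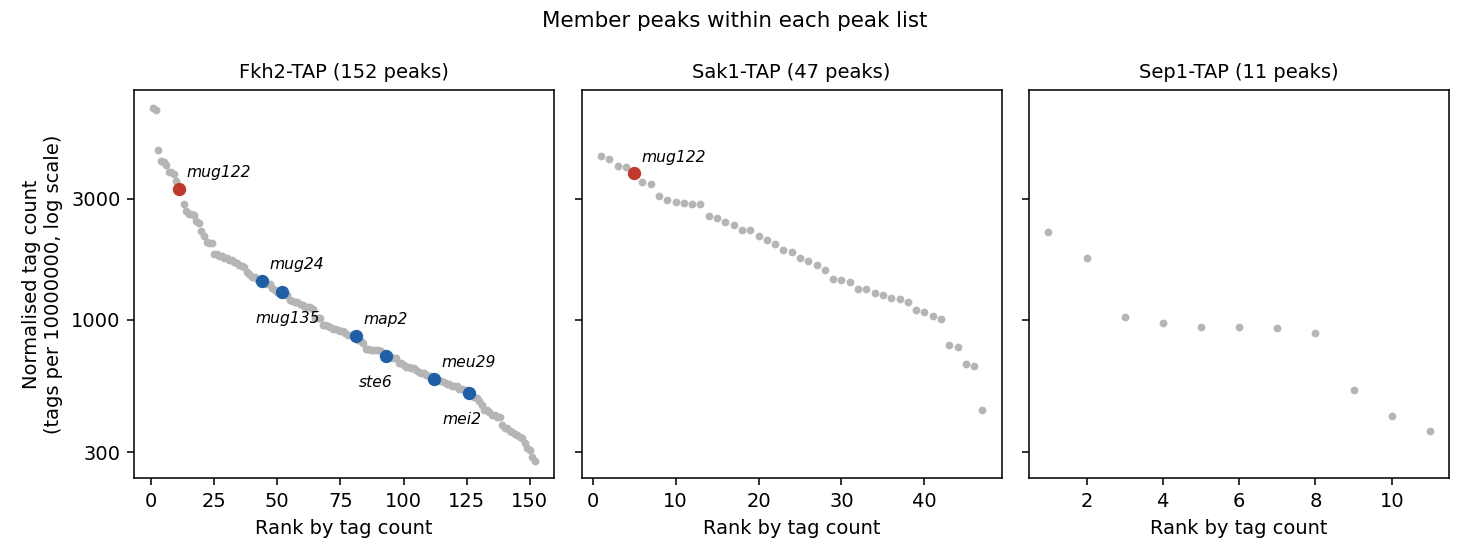
Normalised tag counts of all peaks (tags per 10000000, log scale) against rank within each of the 3 lists, with the peaks of the 7 genes marked (red mug122, blue the others). In the Fkh2 list mug122 stands at rank 11 and the others from rank 44 to 126, in the Sak1 list mug122 stands at rank 5, and no Sep1 peak is marked.

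In order of Fkh2 tag count the genes were mug122, mug24, mug135, map2, ste6, meu29 and mei2. Neighbours in this order had overlapping counting intervals except mug122 with mug24, and mug135 with map2, where the bounds of 1077 and 1061 nearly met. These intervals cover counting error only. For the 6 genes with a Fkh2 peak alone, the median tag count of 791.0 (512.9 to 1424) was near that of all 116 Fkh2 peaks in no other list, 740.6 (278.0 to 4665). Their median fold was 11.5, against 9.21. The median focus ratio, the share of tags placed about the centre in the manner of a point source, was 0.850, against 0.806. Fold over the surrounding 10000 bp was 20.3 at mug122, 12.8 at mug135, 12.3 at mug24 and 5.44 to 6.21 at the other 4. In these values the 6 Fkh2-only genes lay within the range of all Fkh2-only peaks, and 4 of them had tag counts below the list median. They were chosen with their peaks known and set against mug122 as weaker sites, so this describes the choice and is no finding about them. For the 36 peaks also in the Sak1 list the median Fkh2 count was 1817.

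**Figure D3:**
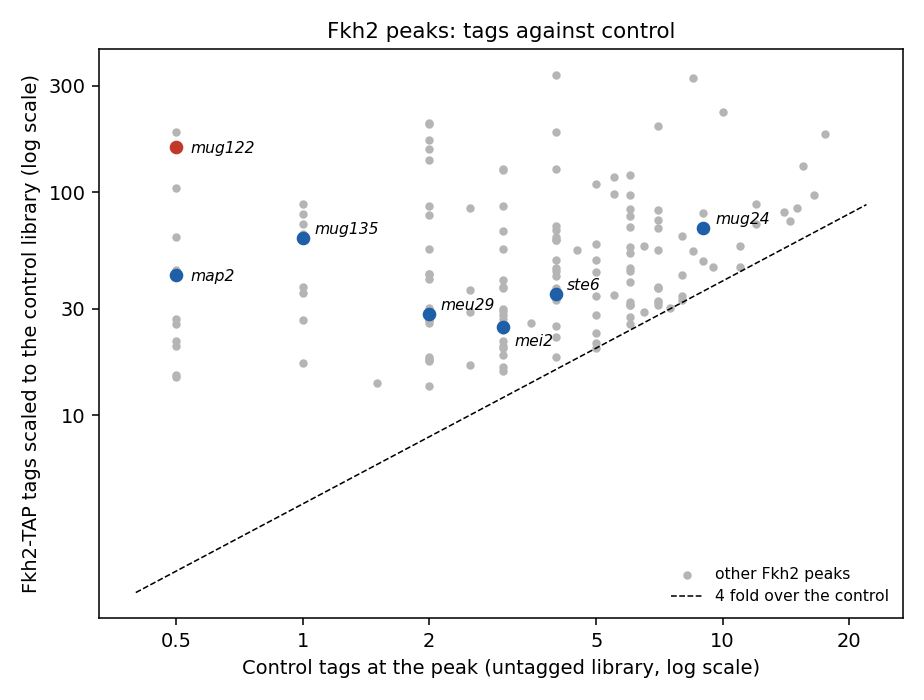
Fkh2-TAP tags scaled to the control library against control tags for each of the 152 Fkh2 peaks (both log scales), with the dashed line at the required 4 fold over the control. The peaks of map2 and mug122 lie at the lowest control count, 0.5, and that of mug24 at 9, so equal Fkh2 tags can stand at very different folds.

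The absence of a gene from a list is not an absence of signal, since a list holds only peaks past the caller's thresholds. The lowest listed counts were 278.0 for Fkh2 (29 tags), 440.2 for Sak1 (35 tags) and 364.0 for Sep1 (33 tags). Each of the 6 Fkh2-only genes had a Fkh2 count above the lowest Sak1 and Sep1 values, but peak widths were 155, 235 and 209 bp and the libraries were scaled separately. Signal below those limits was not analysed here. The Sak1 centre nearest to any of the 6 lay 23583 bp downstream of the 5′ end of meu29. Over all genes, 2.84% had a Fkh2 peak in reach (145 of 5113), 1.06% a Sak1 peak (54) and 0.176% a Sep1 peak (9). Among the 7 genes the counts were 7, 1 and 0, which the choice of genes fixed for Fkh2 and, through mug122, for Sak1.

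By the same 3 lists, mug122 was most like uds1, annotated as a septation protein, and rep2, which encodes an activator subunit of MBF. After them came mde6 and pun1, which share a peak. Likeness was the summed difference in rank, as a percent of list length, over the Fkh2 and Sak1 lists among 35 other genes with both peaks and no Sep1 peak. It was 7.39 for uds1 (ranks 19 and 6), 13.5 for rep2 (25 and 3) and 14.4 for mde6 and pun1 (2 and 1). In the Fkh2 list, the peaks ranked next to the Fkh2-only genes lay at tpi1 and klp5 with cay1 (around map2), pik1 and adh4 with SPAC5H10.07 (around ste6), and coa6 (above mei2). They lay at pst3 with chs2 and at ags1 (around mug24), at ark1 and SPAC26F1.11 (around mug135), and at SPAPB1A10.08 and aly3 (around meu29). Of these only the peaks of klp5 with cay1 and of ags1 were also in the Sak1 list. These neighbours were taken for their rank, so their counts are close to those of the 6 genes by construction.

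A wider set of mating and meiosis genes, written by role with the earlier peak results known, held 110 genes, of which 109 were matched by symbol. Fkh2 peaks were in reach of 11 of them (10.1%, beside 2.84% of all genes), and of 8 of the 106 that are not among the 7 genes above (7.55%). Sak1 peaks were in reach of 1 (0.917%, beside 1.06%) and Sep1 peaks of 0. The 11 genes stood for 11 separate peaks. The share was not tested and moves with the limits. It was 7 of 109 when only centres up to 500 bp upstream counted (beside 1.94% of all genes) and 7 of 109 at 8 fold or more over the control (beside 2.11%). Without the genes chosen for their peaks these were 5 of 106 (4.72%) and 4 of 106 (3.77%). With each peak given to its nearest gene start only, the share was 8 of 109, beside 2.27% of all genes, and still included map2, ste6 and mei2.

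The 8 further genes were spread over the pathway. Among pheromone genes, mfm2, one of the genes for the M-factor precursor, had a weak Fkh2 peak, with a count of 431.5 (rank 134) at 4.19 fold and no forkhead word. The MAP kinase gene spk1 had a count of 1122 (rank 61) at 7.85 fold. The Ste11 word lay at 3 places within 150 bp of its centre, and the MCB word at 1. Among genes of meiotic entry, mei3, whose product inactivates the kinase Pat1, had a count of 762.2 (rank 87) at 5.29 fold, over 7 control tags. Of the transcription factor genes, atf21 had a peak, with a count of 1745 (rank 29), 853 bp upstream of its start.

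The strongest Fkh2 peak among the 8 was that of nrd1, whose RNA-binding product is known to hold back the onset of sexual differentiation. Its Fkh2 count was 2143 (rank 21) at 208.3 fold over a control count of 0.5, and its Sak1 count was 1698 (rank 26) at 82.5 fold over 1 control tag. It was the one gene of the wider set with peaks of both factors, and its centres were 15 bp apart. The bouquet gene bqt1 had a count of 1151 (rank 59), the meiotic septin gene spn5 one of 939.6 (rank 71) and the meiotic recombination gene rec24 one of 421.9 (rank 135). At bqt1, rec24, spn5, spk1 and mfm2 the start of another gene was also in reach of the same peak, so 5 of the 8 peaks cannot be given to 1 gene. The spn5 centre lay 986 bp upstream of its start, just inside the limit, and that of chs1, at 1266 bp, just outside. The forkhead word lay at 7 of the 8 peaks, beside 73.7% of all Fkh2 peaks, and 7 were in no other list, beside 76.3%. Both counts are near the background.

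By role, a Fkh2 peak was in reach of 2 of 10 genes of pheromones, receptors and processing, 2 of 12 of pheromone signalling, 2 of 9 of entry into meiosis and 1 of 13 transcription factors. It was in reach of 1 of 10 genes of nutrient signalling, 1 of 9 of horsetail movement and telomere bouquet, 1 of 16 of recombination, 1 of 16 of sporulation, 0 of 7 of cell and nuclear fusion and 0 of 7 of the meiotic divisions. Each group with a count of 2 includes 1 of the 7 genes chosen for their peaks (map2, ste6 or mei2). Without that gene the counts were 1 of 9, 1 of 11 and 1 of 8. Beside 2.84% of all genes, groups of this size are too small for any of these counts to be read as a result. The 98 of 109 genes without a Fkh2 peak in reach included ste11 and mei4, the factors introduced above, which were named after their values were seen.

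**Figure D4:**
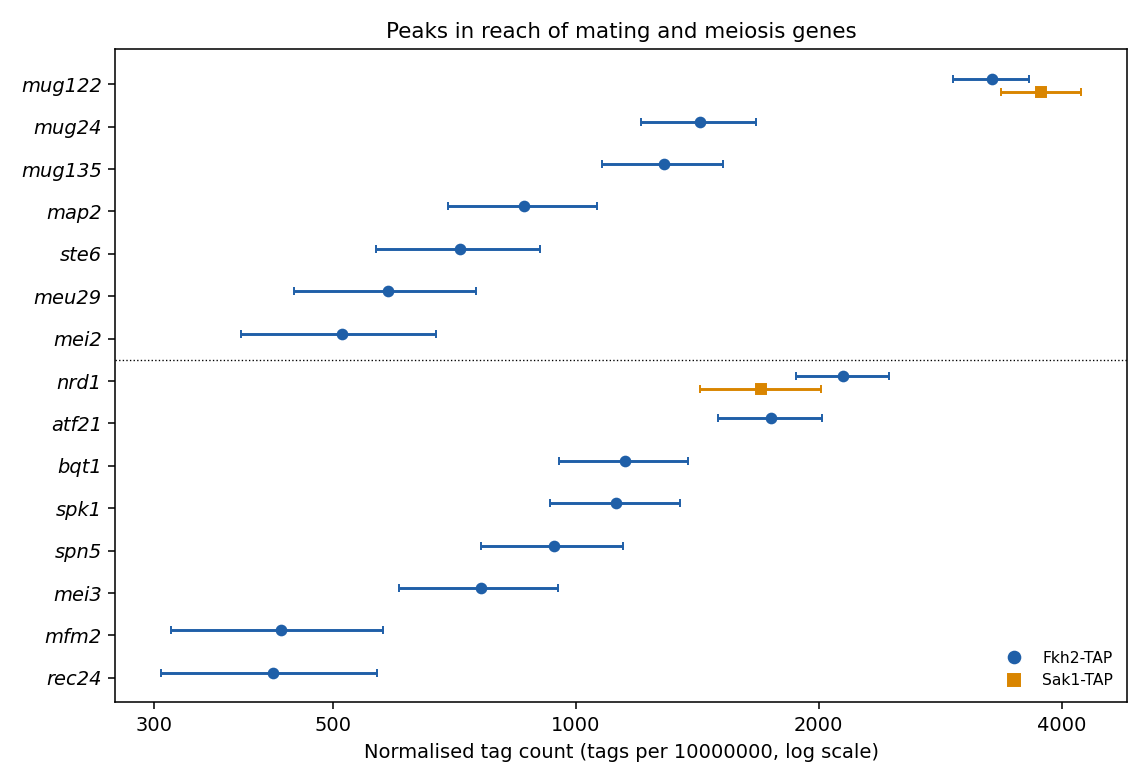
Normalised tag counts (tags per 10000000, log scale) of Fkh2 peaks (blue circles) and Sak1 peaks (orange squares) in reach of the 7 genes (above the dotted line) and of the 8 further genes of the wider set (below), with exact Poisson 95% intervals for counting error. The counts of mug122 stand above the others, and nrd1 is the other gene with a Sak1 peak.

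Genes named mug or meu as a family did not stand far from the annotation as a whole. A Fkh2 peak was in reach of 3 of 91 mug genes (3.30%) and 1 of 19 meu genes (5.26%), beside 2.84% of all genes. For Sak1 these were 1 of 91 and 0 of 19. With genes whose older name was mug or meu included, 8 of 201 had a Fkh2 peak (3.98%), now also adg2, bqt1, rec24 and spn5, and 2 of 201 a Sak1 peak (0.995%), mug122 and adg2. These shares are near the background and are no result about genes induced in meiosis. Just outside the reach, Fkh2 centres lay 289, 338 and 393 bp downstream of the 5′ ends of mug106, mug146 and mug124.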

How the data were processed

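ChIP-seq libraries of 3 tagged strains and 1 untagged strain were analysed from the authors' peak lists. The submitters' processing notes name Bowtie2 2.1.0, SAMtools 0.1.18 and HOMER. Per the file headers, HOMER findPeaks ran on each tagged library without duplicates, against the untagged library, requiring a false discovery rate of 0.001, a Poisson p-value of 1e-04, and at least 4 fold over both that library and the 10000 bp around the peak. The deposited normalised tag counts are a signal scaled to 10000000 tags, and the folds are deposited ratios. Also deposited are the focus ratio, a fraction, and the caller's score, used here only for ranks. The p-values are deposited values of the caller and entered no test.

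The genome build is not given in the sources used here. Coordinates were read against ASM294v3. The forkhead word lay within 150 bp of 112 of 152 Fkh2 centres, and of 5 to 19 with all peaks moved by 1000 to 5000 bp in steps of 500 bp.

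Genes were assigned from peak centres, shared peaks by an overlap of 1 bp, and words on both strands, in Python 3.11.15. Intervals are exact Poisson (scipy 1.17.1) on tags and cover counting error only. No test was made, since each factor has 1 library. The 7 genes and the lists were chosen with earlier results of these data known. Named genes are the 7, list genes with a peak, and the nearest by rank. Genes outside this rule (promoters with the joined site, genes without a peak or just outside reach) were named after their values were seen. Reach, overlap and word counts were checked on simulated data.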

Additional observations from a re-analysis of the deposited data

How the results depend on the processing

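Of 104 values under other settings, 79 stayed within 1.5 times the reported count or rank, or within the counting interval of a fold, and 25 moved. All 7 genes kept a Fkh2 peak in reach under the wider reach (1500 and 500 bp), with any base of the peak and with the nearest gene start only. There were 6 with 500 bp upstream and 0 downstream, 6 at 8 fold or more, and 3 in the upper 50% by tag count, and mug122 alone had a Sak1 peak throughout. List genes with a Fkh2 peak numbered 7, 7 and 5 of 109 in these 3 narrower settings, and with a Sak1 peak 0 in the upper 50%. Over all genes the Fkh2 shares in these settings were 1.94%, 2.11% and 1.62%, and the Sak1 share in the upper 50% was 0.567%. For mug and meu genes (110 by symbol) the counts rose to 7 (Fkh2) and 2 (Sak1) with the wider reach. They rose to 2 (Sak1) with any base of the peak, and to 8 and 2 of 201 with synonyms. Over all genes the shares rose too, to 3.7% (Fkh2) and 1.21% (Sak1) with the wider reach and 1.11% (Sak1) with any base. By fold over the control the Fkh2 ranks were 11 for map2, 2 for mug122, 104 for mug24, 18 for mug135 and 59 for meu29, and the Sak1 rank of mug122 was 1. By fold over the local background they were 29 for mug24 and 27 for mug135. With the control raised to its mean, the folds were 7.09 (map2), 4.16 (mei2), 5.84 (ste6), 26.8 (mug122), 10.4 (mug135) and 4.75 (meu29) for Fkh2, and 20.4 for Sak1 at mug122. Sharing did not change, and word counts stayed within the limit of 1.5 times. Within 300 bp the forkhead word lay at 7 peaks and the RFX word at 3. The settings with TAAACA, the joined site and peaks above a control count of 0.5 (median 719.1 for the Fkh2-only genes) were chosen after seeing the data. No paired analysis was possible because each group is 1 pooled library, which also leaves no replicate to leave out. The fewest tags behind a reported count of the 7 genes were 53.5, at mei2.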

Other observations

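Most places with the joined forkhead and Ste11 site had no Fkh2 peak. Of the 31 places, 18 had a protein-coding gene start in reach, and 3 of these 18 lay at a Fkh2 peak (16.7%). The share for places with the forkhead word was counted only with or without a gene start in reach (148 of 4206, 3.52%), so 16.7% has no like background. The 3 were mei2 and ste6, where the form was first noticed, and spk1. Of the 15 without a Fkh2 peak, 2 lay in reach of a gene of the wider set. These were tht1, a gene of nuclear fusion, and dhc1, the dynein heavy chain gene of meiotic nuclear movement. A further 1 lay at mug4, and 12 lay at genes neither in the wider set nor named mug or meu. The wider set is not complete, so these 12 were not shown to lack a role in mating or meiosis. No value of Fkh2 signal at these 15 places was analysed.

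The map2 peak held no forkhead word by the 7-base spelling, nor GTAAATA, while its 6-base core TAAACA lay within 150 bp of all 7 centres. That core lay in 43.4% of promoter windows and at 84.2% of Fkh2 peaks, so its presence at 1 peak is a weak description.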
